A study of Mus musculus with 2 samples.

Results

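The 8 genes described here move salt and water across the lung epithelium or control that movement. They were taken by symbol from the 32285 genes of a single-cell RNA-sequencing table of fetal mouse lung, and each symbol matched exactly 1 row. Scnn1a, Scnn1b and Scnn1g encode the alpha, beta and gamma subunits of the epithelial sodium channel, ENaC. Aqp1 and Aqp5 encode water channels, Atp1b1 the beta 1 subunit of the sodium pump (Na,K-ATPase), Cftr a chloride channel, and Nedd4l a ubiquitin ligase that removes ENaC from the cell surface.

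Wild-type C57BL/6J mothers, 9 weeks old, drank water that held either the synthetic glucocorticoid dexamethasone (DEX), at 1.3 µg/ml, or PBS, a buffered saline, as the control, from day 12 of gestation. Lungs were taken at day 18, and the cells of all fetuses of a litter were pooled and tagged with 1 hashtag antibody, so that the litter is the replicate. The litters were DEX-1 (8 fetuses), DEX-2 (9 fetuses), PBS-1 (5 fetuses) and PBS-2 (8 fetuses). Live cells that carried CD45 and ST2 but no lineage markers, the gate for group 2 innate lymphoid cells (ILC2s), were sorted from the 4 litters and run as 1 library of the 10x 5′ chemistry, so any epithelial, endothelial or mesenchymal cell in the table came through a gate meant to remove it.

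Before birth the lung is filled with liquid that its epithelium secretes, driven by chloride leaving the cells through channels such as CFTR. Around birth the direction reverses: sodium enters through ENaC at the apical surface, the sodium pump drives it out at the base, and water follows, partly through aquaporins. Flat alveolar type 1 (AT1) cells cover most of the gas-exchange surface, cuboidal alveolar type 2 (AT2) cells make surfactant, and glucocorticoids are known inducers of ENaC subunits and of their regulator kinase Sgk1 in lung epithelium.

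Of 10648 barcodes, 10409 passed the filters and 7268 carried a single hashtag, between 1737 and 1890 per litter with a median of 7458 to 8325 unique molecular identifiers (UMIs) per barcode. A further 2405 carried none, at a median of 6295 UMIs. Clustering without the 8 genes gave 9 classes named from fixed markers: AT1-like (331 barcodes), AT2-like (486), ciliated-like (60), endothelial-like (739), mesenchymal-like (716), basophil or mast-like (3518), macrophage or monocyte-like (259), ILC2-like (2091) and B-like (203). All 10 AT1 markers were found in 64.0% to 99.1% of AT1-like cells, and all 10 AT2 markers in 85.2% to 100% of AT2-like cells. The same markers gave the names. Other labels were weaker: in macrophage or monocyte-like cells 5 of 8 markers reached 25% of cells, with a lowest share of 8.88%. The counts were 7 of 8 in ILC2-like cells (lowest 5.93%), 7 of 8 in basophil or mast-like cells (23.0%) and 8 of 9 in mesenchymal-like cells (10.8%).

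Most structural cells could not be given to a litter. A hashtag was carried by 20.5% of AT1-like, 28.0% of AT2-like, 48.3% of ciliated-like, 34.8% of endothelial-like and 22.9% of mesenchymal-like barcodes, against 97.9% to 99.6% in the 4 immune classes. AT1-like cells with a hashtag numbered 12 and 30 in the DEX litters and 22 and 4 in the PBS litters. In the mesenchymal-like class, 32.9% of barcodes with a hashtag held a UMI of Ptprc, which encodes CD45, against 0.906% of those without, and in the endothelial-like class the shares were 11.7% and 0.622%. In AT1-like and AT2-like cells Ptprc was found in at most 1.47% of barcodes with or without a hashtag. Levels are therefore given per litter and, beside them, pooled over barcodes with no hashtag.

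**Figure D1:**
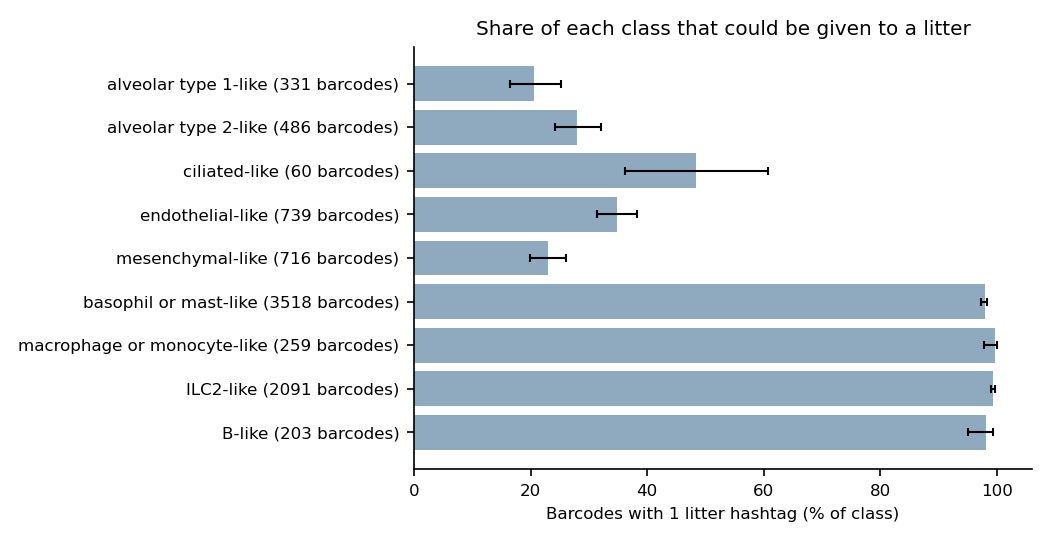
Percent of barcodes of each class that carried a single hashtag and could be assigned to a litter, with 95% Wilson intervals. Immune classes stand at 97.9% or above, and the AT1-like, AT2-like, endothelial-like and mesenchymal-like classes at 34.8% or below.

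All 3 ENaC subunits had their highest level in AT1-like cells. Levels are the UMIs of a gene per 1000000 UMIs of the class in that litter (CPM), with no scaling to transcript length. For the channel genes and their partners, levels are compared between classes for 1 gene and not between genes. Related genes, listed further below, are ranked against each other by CPM within a role and class. Scnn1a, without which the channel does not reach the membrane in working form, measured 283 and 343 CPM in litters DEX-1 and DEX-2 and 311 and 403 CPM in litters PBS-1 and PBS-2, an order kept for litter values from here on. The mean was 335 ± 51.9 CPM (SD, n = 4 litters), and barcodes with no hashtag gave 322 CPM. Ciliated-like cells followed at 180 ± 26.8 CPM (SD, n = 4) and AT2-like cells at 42.3 ± 11.1 CPM (SD, n = 4). The litters of these 3 classes did not overlap, and the 6 remaining classes had means of 6.56 CPM or less. Counted as UMIs per cell the order of the top pair turned, with AT1-like cells below ciliated-like cells by a log2 ratio of -0.72. Hashtagged barcodes, on which this rests, held a median of 36773 UMIs in the ciliated-like and 9175.5 UMIs in the AT1-like class.

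Scnn1b and Scnn1g, which raise the current that the alpha subunit carries, were more restricted among the named classes. Scnn1b in AT1-like cells measured 98.4 and 135 CPM under DEX and 173 and 110.0 CPM under PBS, on 6 to 44 UMIs per litter. Its mean of 129 ± 32.8 CPM (SD, n = 4) stood above ciliated-like cells at 38.6 ± 15.7 (SD, n = 4) and AT2-like cells at 3.29 ± 2.44 (SD, n = 4), with no overlap of litters between the 3 classes. As UMIs per cell, the log2 ratio of AT1-like to ciliated-like cells was 0.14. Scnn1g measured 117 and 172 CPM under DEX and 207 and 238 CPM under PBS. Its mean of 183 ± 52.1 CPM (SD, n = 4) was 17.2-fold that of ciliated-like cells, the next class, where 10.7 ± 11.6 CPM could not be separated from the 10.3 ± 6.49 CPM (SD, n = 4) of AT2-like cells. The lead over ciliated-like cells was smaller with barcodes thinned to 2000 UMIs, at a log2 ratio of 2.67, and as UMIs per cell, at 2.41. The AT1-like level was thus 7.93-fold the AT2-like level for Scnn1a, 39.3-fold for Scnn1b and 17.8-fold for Scnn1g, and 7.60-fold, 29.0-fold and 26.4-fold in barcodes with no hashtag. When singlets were clustered alone the ratios for Scnn1b and Scnn1g were larger, at log2 values of 7.33 and 5.65. With barcodes thinned to 2000 UMIs the log2 ratio was smaller for Scnn1a, at 2.38, and larger for Scnn1g, at 6.07. As UMIs per cell it was also 2.38 for Scnn1a. These ratios, and those for the other genes below, hold for the named classes only. Clusters with both AT1 and AT2 markers met no name and were left out. In 1 of them, 215 barcodes led by the AT2 marker Sftpc, barcodes with no hashtag held Scnn1a at 132 CPM, Scnn1b at 37.6 CPM and Scnn1g at 67.1 CPM.

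No hashtagged mesenchymal-like barcode held a Scnn1g UMI, and no hashtagged B-like barcode one of Scnn1b or Scnn1g. Mesenchymal-like barcodes with no hashtag held 11 Scnn1g UMIs, at 3.16 CPM. A gauge of AT2 RNA in barcodes of other classes is Sftpc, which encodes surfactant protein C and marks AT2 cells. As a share of the AT2-like level, it was 5.23% in AT1-like, 5.74% in ciliated-like and 1.02% in endothelial-like cells. In the mesenchymal-like and immune classes it was 0.114% to 0.422%. The parts of free RNA, mixed barcodes and the cells' own transcripts in these shares were not tested. The Scnn1g level of AT2-like cells was 5.62% of that of AT1-like cells, and the Scnn1a level was 12.6%. The Scnn1a level of ciliated-like cells was 53.7%. Sftpc gauges AT2 RNA in other classes, not AT1 RNA in AT2-like barcodes. With a hashtag, Ager, which encodes an AT1 marker, was at 516 and 945 CPM in the AT2-like clusters. The AT1-like clusters held it at 9215 and 8278 CPM. The part of AT1 RNA in the AT2-like levels was not tested.

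**Figure D2:**
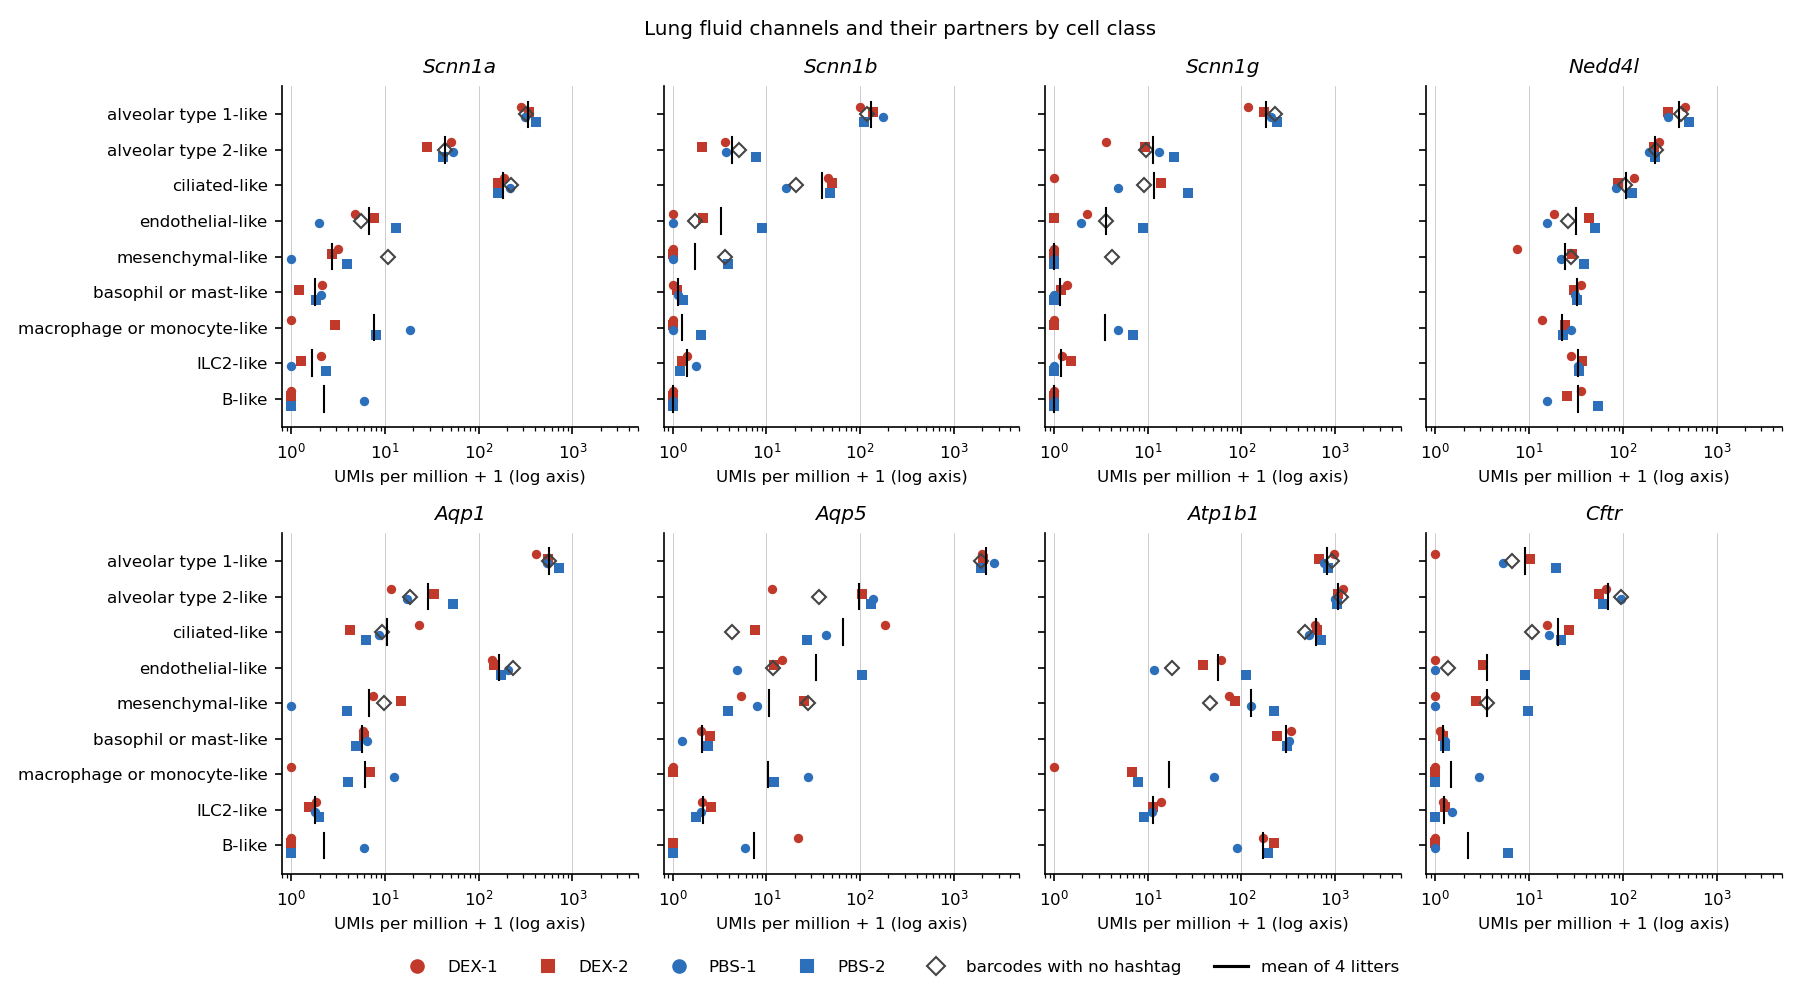
Level of each of the 8 genes by class, as CPM + 1 on a log axis. Filled red markers are DEX litters, blue are PBS litters (circle, litter 1; square, litter 2), black bars are means of the 4 litters and open diamonds are barcodes with no hashtag. The ENaC subunits and the aquaporins peak in AT1-like cells, Cftr and Atp1b1 in AT2-like cells, and DEX and PBS markers intermingle within most classes.

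Nedd4l, the ligase that limits ENaC, was highest in the same cells. The gene lies at chr18:64887705-65217828 on the plus strand (GENCODE M21, GRCm38). In AT1-like cells it measured 455 and 300.6 CPM under DEX and 301.96 and 513 CPM under PBS, a mean of 393 ± 108 CPM (SD, n = 4), and 418 CPM in barcodes with no hashtag. AT2-like cells stood at 218 ± 21.4 CPM (SD, n = 4), below every AT1-like litter, and ciliated-like cells at 107 ± 24.9 CPM (SD, n = 4). As UMIs per cell the lead of AT1-like over AT2-like cells was smaller, at a log2 ratio of 0.25. Each of the 6 other classes had a mean between 21.3 and 32.0 CPM. Nedd4l was therefore measured in every class.

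Both aquaporins were led by AT1-like cells, and Aqp1 was also high in endothelial-like cells. Aqp1, a water channel known from capillary walls, measured 412 and 552 CPM under DEX and 539 and 715 CPM under PBS in AT1-like cells, a mean of 555 ± 124 CPM (SD, n = 4). In endothelial-like cells it measured 137 and 143 CPM under DEX and 204 and 170.0 CPM under PBS, a mean of 163 ± 30.8 CPM (SD, n = 4), 3.39-fold lower with no overlap. Barcodes with no hashtag gave 565 CPM in AT1-like and 231 CPM in endothelial-like cells. AT2-like cells stood at 27.8 ± 18.6 CPM (SD, n = 4), below every endothelial-like litter. The log2 ratio of AT1-like to AT2-like cells was smaller as UMIs per cell, at 3.57, and larger with singlets clustered alone, at 5.48. That of AT1-like to endothelial-like cells was smaller both after thinning to 2000 UMIs, at 1.26, and as UMIs per cell, at 1.34.

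Aqp5, the apical water channel of AT1 cells, measured 2004 and 2049 CPM under DEX and 2713 and 1962 CPM under PBS in AT1-like cells. Its mean of 2182 ± 356 CPM (SD, n = 4) was 22.8-fold the AT2-like mean of 95.7 ± 58.5 CPM (SD, n = 4), and 55.5-fold in barcodes with no hashtag; with singlets clustered alone the log2 ratio was 6.24. In AT2-like cells the litters differed widely, at 10.5 and 104.6 CPM under DEX and 137 and 131 CPM under PBS, on 4, 100, 101 and 58 UMIs. Barcodes with no hashtag gave 35.2 CPM, within that range. Ager, which encodes an AT1 marker, reached 868 CPM in the AT2-like cells of all litters against 8368 CPM in AT1-like cells.

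Atp1b1 was high in all 3 epithelial classes and in part of the immune cells. AT2-like cells measured 1225 and 1062 CPM under DEX and 984 and 1039.9 CPM under PBS, a mean of 1078 ± 103 CPM (SD, n = 4). AT1-like cells measured 965, 672, 768 and 843 CPM in the same litters, a mean of 812 ± 124 CPM (SD, n = 4), which was 1.33-fold lower without overlap and 1.25-fold lower in barcodes with no hashtag. Ciliated-like cells at 618 ± 76.5 CPM (SD, n = 4) overlapped AT1-like cells. Among the immune classes, basophil or mast-like cells stood at 300 ± 42.0 CPM (SD, n = 4), 27.8% of the AT2-like level where Sftpc stood at 0.114% of its own. B-like cells had 167 ± 56.9 CPM (SD, n = 4), whereas ILC2-like cells, the cells that the gate was set for, had 10.4 CPM and macrophage or monocyte-like cells 15.7 CPM. Within the basophil or mast-like class the 4 clusters ranged from 85.0 CPM in a cluster led by Gzmb and Car1 to 573 CPM in a cluster led by Mcpt2.

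Cftr was the only one of the 8 genes besides Atp1b1 to be highest in AT2-like cells. It measured 65.4 and 54.4 CPM under DEX and 93.6 and 60.9 CPM under PBS, on 25 to 69 UMIs, a mean of 68.6 ± 17.3 CPM (SD, n = 4). Ciliated-like cells at 19.1 ± 5.31 CPM (SD, n = 4) were 3.58-fold lower without overlap, and overlapped AT1-like cells at 7.96 ± 7.87 CPM (SD, n = 4). The log2 ratio of AT2-like to ciliated-like cells was smaller after thinning to 2000 UMIs, at 1.01, and as UMIs per cell, at 0.83. In barcodes with no hashtag it was larger, at 3.28. The AT2-like level was 8.61-fold the AT1-like level over litters and 17.3-fold in barcodes with no hashtag.

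The genes of the beta and gamma subunits are neighbours. In the GENCODE M21 annotation of GRCm38, Scnn1g lies at chr7:121734479-121768475 and Scnn1b at chr7:121865038-121918514, both on the plus strand and 96562 bases apart. Scnn1a lies at chr6:125320659-125344943, Aqp1 at chr6:55336432-55348555, Aqp5 at chr15:99590782-99594829 and Cftr at chr6:18170687-18322768, all on the plus strand, and Atp1b1 at chr1:164437109-164458355 on the minus strand. The RefSeq promoter table, built on GRCm38.p6, held 6 of the 8 genes. The 250 bases before the start are shown for the neighbouring pair, whose levels peak in AT1-like cells, and for Cftr, which peaks in AT2-like cells; capitals mark GGGCGG on either strand (CCGCCC on the other), the core of a GC box. Scnn1g is at chr7:121734229-121734478, Scnn1b at chr7:121864788-121865037 and Cftr at chr6:18170437-18170686.
Scnn1g: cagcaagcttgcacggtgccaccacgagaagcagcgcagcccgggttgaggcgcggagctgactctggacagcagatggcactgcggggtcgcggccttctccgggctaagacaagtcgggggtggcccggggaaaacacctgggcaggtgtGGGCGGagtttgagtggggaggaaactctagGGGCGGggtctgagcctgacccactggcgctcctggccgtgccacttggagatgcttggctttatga
Scnn1b: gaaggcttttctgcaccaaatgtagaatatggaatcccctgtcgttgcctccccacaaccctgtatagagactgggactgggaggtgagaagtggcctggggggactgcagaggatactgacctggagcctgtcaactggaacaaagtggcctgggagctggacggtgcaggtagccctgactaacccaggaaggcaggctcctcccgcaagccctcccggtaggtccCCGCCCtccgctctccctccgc
Cftr: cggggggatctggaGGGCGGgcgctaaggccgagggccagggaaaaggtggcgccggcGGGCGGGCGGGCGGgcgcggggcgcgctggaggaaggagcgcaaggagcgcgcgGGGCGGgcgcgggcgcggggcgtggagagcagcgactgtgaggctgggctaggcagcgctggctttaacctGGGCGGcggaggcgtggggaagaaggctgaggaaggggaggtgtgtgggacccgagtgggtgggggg
The motif occurred 6 times in the Cftr window, overlapping matches included, 2 times in Scnn1g and 1 time in Scnn1b, and in 32.7% of the windows of 32851 promoters. The window of Aqp1 held it 1 time, and those of Aqp5 and Atp1b1 held it 2 times each. AGAACA or its reverse TGTTCT, a short site that the glucocorticoid receptor can bind, was in none of the 6 windows and in 16.1% of all windows. These windows run from 60.8% GC in Scnn1b to 78.4% in Aqp5, and Cftr has 76.4%. A match or its absence describes these letters and nothing about a factor.

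Single AT1-like cells often held UMIs of several of these genes. To compare shares at 1 depth, each barcode was thinned to 2000 UMIs. Of 240 AT1-like barcodes with no hashtag, 45.4% (95% Wilson interval 39.2% to 51.7%) held a Scnn1a UMI, 20.4% (15.8% to 26.0%) a Scnn1b UMI and 31.2% (25.7% to 37.4%) a Scnn1g UMI. At least 1 subunit was found in 70.0% (63.9% to 75.4%), at least 2 in 23.3% (18.4% to 29.1%) and all 3 in 3.75% (1.99% to 6.97%). Unthinned, at a median of 5957 UMIs, the shares were 92.4%, 71.1% and 32.7%. The joint shares expected if each gene were detected independently were not computed. Joint shares here and below therefore describe detection and are no measure of co-expression in single cells. The 67 AT1-like barcodes with a hashtag gave 68.7% with at least 1 subunit, thinned, inside the interval of the others.

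AT2-like cells held fewer. Thinned, 7.69% (5.30% to 11.0%) of 338 AT2-like barcodes with no hashtag held at least 1 ENaC subunit, and 0 of 338 held all 3, which allows a share of up to 0.888%. The share with any subunit was 1.18% in endothelial-like cells and 0.390% in hashtagged ILC2-like cells, whose median before thinning was 7242 UMIs. ILC2-like cells served as the background, a low one, since their Sftpc level was 0.141% of the AT2-like level where that of AT1-like cells was 5.23%. A Cftr UMI was found in 16.9% (13.2% to 21.2%) of AT2-like and 0.417% (0.0736% to 2.32%) of AT1-like barcodes with no hashtag. Unthinned, the AT2-like share was 58.6% at a median of 11926.5 UMIs.

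The water channels were detected more often, singly and together. Aqp5 was found in 90.8% and Aqp1 in 66.2% of thinned AT1-like barcodes with no hashtag, and both in 60.8% (54.5% to 66.8%). Aqp1 was found in 36.4% (32.0% to 41.1%) of endothelial-like barcodes with no hashtag and in 0.146% of ILC2-like barcodes. Atp1b1 was found in 85.2% of AT2-like, 80.4% of AT1-like, 43.4% (41.7% to 45.2%) of basophil or mast-like and 2.58% of ILC2-like barcodes at the same depth. Nedd4l was found in 55.8% of AT1-like and 34.9% of AT2-like barcodes with no hashtag, and in 6.53% of ILC2-like and 6.65% of basophil or mast-like barcodes with one.

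**Figure D3:**
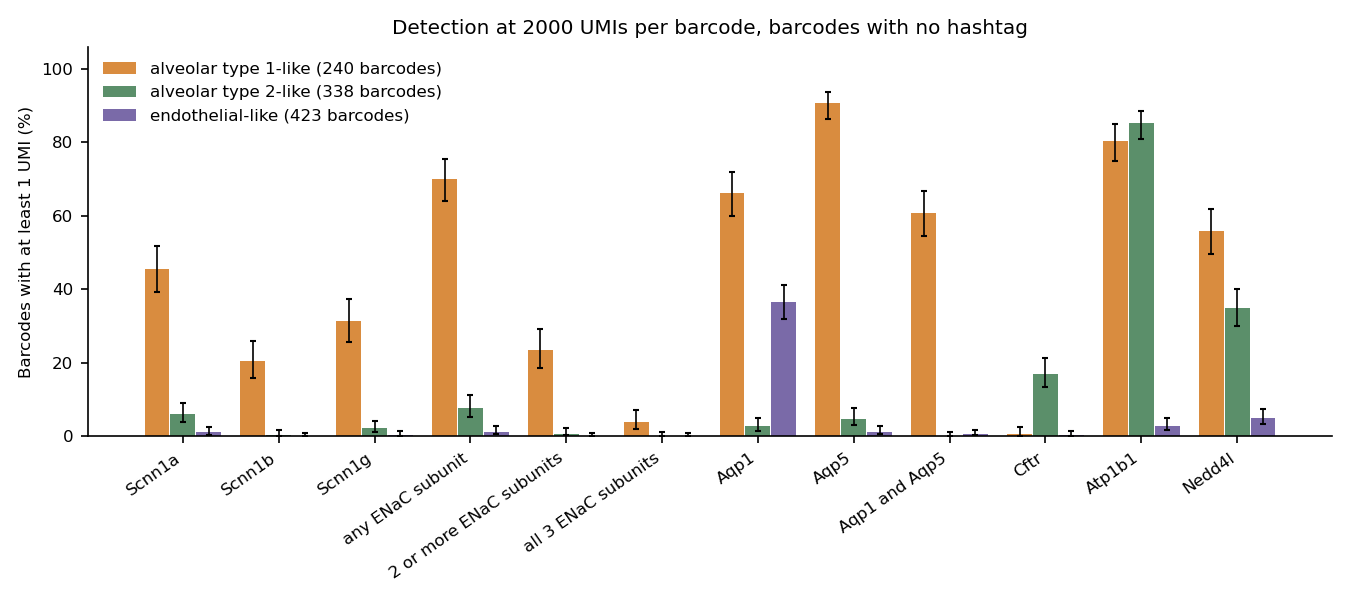
Percent of barcodes with no hashtag that held a UMI of each gene or combination after thinning to 2000 UMIs, with 95% Wilson intervals, in 240 AT1-like, 338 AT2-like and 423 endothelial-like barcodes. At least 1 ENaC subunit was found in 70.0% of AT1-like, 7.69% of AT2-like and 1.18% of endothelial-like barcodes.

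Within the alveolar classes Nedd4l and Cftr varied with a cluster that differed in depth and RNA make-up. AT1-like cells fell into a cluster of 85 barcodes led by Sema3a and Lmo7, with a median of 3883 UMIs and 1.28% mitochondrial UMIs, and a cluster of 246 barcodes led by Aqp5, Ager and Hopx, with 7624 UMIs and 0.638%. In barcodes with no hashtag, Nedd4l measured 842 CPM in the smaller and 311 CPM in the larger cluster, a ratio of 2.71, and the ratio was 1.59 for Scnn1a, 1.36 for Scnn1g, 0.891 for Scnn1b and 0.924 for Aqp5. Malat1, a nuclear RNA, had a ratio of 2.79. In AT2-like cells a cluster of 109 barcodes led by Ank3, Hc and Meg3 had 164 CPM of Cftr against 77.5 CPM in the 377 others, a ratio of 2.12, beside ratios of 1.84 for Nedd4l, 1.88 for Scnn1g, 1.59 for Scnn1a, 1.57 for Scnn1b, 1.13 for Atp1b1 and 2.17 for Malat1. With a hashtag Scnn1g had a ratio of 0.382 and Scnn1a 0.863 there. Barcodes with a hashtag gave ratios of 2.40 for Nedd4l in AT1-like cells and 1.92 for Cftr in AT2-like cells. Nedd4l and Cftr span 330124 and 152082 bases, the longest of the 8 genes, and the part of nuclear RNA in these ratios was not tested.

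Across the 9 classes the ENaC subunits followed each other closely. On log2(CPM + 1), summed over litters, Pearson's r was 0.94 for Scnn1a with Scnn1b, 0.95 for Scnn1a with Scnn1g and 0.92 for Scnn1b with Scnn1g. Scnn1g with Aqp5 gave 0.94, Aqp1 with Aqp5 0.87, and the lowest pair was Aqp1 with Cftr at 0.42. The classes share a library and free RNA, so these are descriptions. Among 10561 genes that reached 20 CPM in a class, the closest in pattern were Krt19, Myh14 and BC067074 for Scnn1a, Tent5b, Krtap17-1 and Chst5 for Scnn1b, and Evpl, Gramd2 and Myrf for Scnn1g, with r of 0.98 to 0.99 (BC067074 0.99). Lims2, Oxr1 and Fam57a were closest to Aqp1 (0.97, 0.96 and 0.95), and Edn3, Ager and Pdpn, the latter pair AT1 markers, to Aqp5 (0.99, 0.99 and 0.98). Atp1b1 was closest to St14 (0.99), Naa80 (0.93) and Pcbd1 (0.91), and St14 encodes matriptase, a membrane protease that can activate ENaC. Cftr was closest to the AT2 markers Sftpb (1.00), Cxcl15 (0.99) and Sftpc (0.99), and Nedd4l to Dolpp1 (0.99), Tmem139 (0.98) and Elmo3 (0.98).

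A list of 56 other genes of fluid transport, grouped by role, places the 8 in context. Of the other sodium pump subunits, the highest was Fxyd3 in AT1-like cells at 182 ± 40.6 CPM (SD, n = 4) and Fxyd5 in endothelial-like cells at 504 ± 47.2 (SD, n = 4), both FXYD proteins that modulate the pump. In AT1-like, AT2-like and endothelial-like cells the remaining aquaporins were led by Aqp3 at 9.02 to 23.0 CPM in AT2-like and Aqp11 at 7.48 ± 1.53 CPM (SD, n = 4) in endothelial-like cells. Outside these classes, and named after its value was seen, Aqp4 stood at 36.5 ± 10.5 CPM (SD, n = 4) in ciliated-like cells. Spint2, an inhibitor of the proteases that activate ENaC, led that role in AT1-like (570 ± 114 CPM, SD, n = 4) and AT2-like cells (496 ± 26.0 CPM, SD, n = 4), and Furin, such a protease, in endothelial-like cells (42.8 ± 7.41 CPM, SD, n = 4). Nedd4, the relative of Nedd4l, led the regulators in AT1-like, AT2-like and endothelial-like cells alike (488 ± 122, 355 ± 59.6 and 526 ± 44.5 CPM, SD, n = 4 each). Slc9a3r2, an adaptor that binds CFTR among others, measured 897 ± 104 CPM (SD, n = 4) in endothelial-like cells.

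Whether maternal DEX was associated with other levels was asked in 8 of the 9 classes, with the UMIs summed per litter. Ciliated-like cells, with 5 to 10 hashtagged barcodes per litter, were not tested, since a minimum of 10 per litter was set for every class outside the 6 that were tested at any size, AT1-like cells among them. None of the 8 genes was called in any class at an adjusted p under 0.05 by edgeR's quasi-likelihood test with Benjamini-Hochberg adjustment over all genes tested. DESeq2 and limma-voom also called 0. In AT1-like cells 7 of the 8 genes passed the filter on low counts and 0 were called, where 0% of the 3057 genes tested were. At an unadjusted p under 0.05 the count was 0 of 7, against 4.87% of all genes. The AT1-like values rest on 4 barcodes in PBS-2, where 3 UMIs are worth 55.0 CPM.

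ENaC in AT1-like cells gave no call in either direction. By edgeR, with Benjamini-Hochberg adjustment, the log2 difference of DEX from PBS was -0.05 (SE 0.26, adjusted p = 0.999) for Scnn1a, whose DEX litters at 283 and 343 CPM overlapped the PBS litters at 311 and 403. For Scnn1b it was -0.34 (SE 0.33, adjusted p = 0.996), also with overlap. For Scnn1g it was -0.48 (SE 0.31, unadjusted p = 0.136, adjusted p = 0.996). Both DEX litters of Scnn1g lay below both PBS litters, as they did for 18.1% of all genes tested. Nedd4l differed by 0.04 (SE 0.29) and Atp1b1 by 0.06 (SE 0.22). Aqp1 differed by -0.25 (SE 0.24) and Aqp5 by -0.19 (SE 0.19), and all 4 genes overlapped between groups. The sign for Scnn1a, Scnn1b, Aqp1, Aqp5, Atp1b1 and Nedd4l turned under other ways of assigning litters or counting.

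In AT2-like cells 6 of the 8 genes were tested and 0 called, where 0.0171% of 5839 genes were. At an unadjusted p under 0.05 the count was 1 of 6, Aqp5, against 5.15% of all genes. Aqp5 differed by -0.91 (SE 0.42, unadjusted p = 0.0488, adjusted p = 0.921 by edgeR with Benjamini-Hochberg adjustment), with both DEX litters, at 10.5 and 104.6 CPM, below both PBS litters, at 137 and 131 CPM, as in 16.6% of genes. Ager in these cells was split the same way, at 775 and 803 CPM under DEX and 853 and 1117 CPM under PBS, and the part of AT1 RNA in the Aqp5 difference was not tested. Without DEX-2, leaving DEX-1 with 4 Aqp5 UMIs as the lone treated litter, the same test called it at -3.67 (adjusted p = 7.16e-09), and with no filter on low genes at -0.89 (adjusted p = 0.0451). Cftr differed by -0.47 (SE 0.27, unadjusted p = 0.106), with litters that overlapped. Atp1b1 differed by 0.17 (SE 0.13), with both DEX litters above both PBS litters as in 18.0% of genes. Scnn1a differed by -0.46 (SE 0.33), Aqp1 by -0.27 (SE 0.51) and Nedd4l by 0.15 (SE 0.17). Scnn1a and Aqp1 overlapped between groups.

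In endothelial-like cells 4 of the 8 genes were tested and 0 called, where 0% of 8879 genes were, and none had an unadjusted p under 0.05 where 2.82% of genes did. For 0 of the 4 were both DEX litters above both PBS litters, as they were for 10.9% of genes. Aqp1 differed by -0.37 (SE 0.18, unadjusted p = 0.0792, adjusted p = 0.999 by edgeR with Benjamini-Hochberg adjustment). Its DEX litters, at 137 and 143 CPM, lay below its PBS litters, at 204 and 170.0 CPM, as in 20.3% of genes. Aqp5 was at 3.84 to 13.7 CPM in 3 litters and 103 CPM in PBS-2, where Ager was at 281 CPM against 28.8 to 80.8 CPM and Sftpc at 6159 CPM against 265 to 406 CPM. The part of alveolar RNA in that value was not tested. Without PBS-1, Aqp5 was called at -3.00 (adjusted p = 0.000152), and without PBS-2 its sign turned to 1.69 and Atp1b1 was called at 2.24 (adjusted p = 0.0436); with all litters Atp1b1 differed by -0.31 (SE 0.82) and Nedd4l by -0.05 (SE 0.61).

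In mesenchymal-like cells 2 of the 8 genes were tested and 0 called, where 0% of 6569 genes were. Atp1b1 was 1 of 2 with an unadjusted p under 0.05, where 5.05% of genes had one. It measured 73.1 and 84.4 CPM under DEX and 125 and 219 CPM under PBS, a log2 difference of -1.11 (SE 0.31, unadjusted p = 0.0052, adjusted p = 0.967 by edgeR with Benjamini-Hochberg adjustment). Both DEX litters lay below both PBS litters, as in 15.8% of genes. Cpa3, a mast cell protease gene, followed the same order in these cells, at 1037, 1557, 1683 and 3377 CPM, and Atp1b1 in mesenchymal-like barcodes with no hashtag was at 45.4 CPM with Cpa3 at 11.5 CPM. The part of mast cell RNA in the difference was not tested. With barcodes holding an immune UMI left out, Atp1b1 no longer passed the filter, and without PBS-1 it was called at -1.49 (adjusted p = 0.0485). Nedd4l differed by -0.67 (SE 0.64), and by -2.17 to -0.0087 with 1 litter left out.

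The immune classes gave no call for these genes. In basophil or mast-like cells 4 were tested and 0 called, where 0% of 11883 genes were and 5.45% had an unadjusted p under 0.05. Atp1b1, at 335 and 239 CPM under DEX and 317 and 307.4 CPM under PBS, differed by -0.12 (SE 0.15), with overlapping litters. The other 3 overlapped too, where 17.0% of genes had both DEX litters above and 18.1% both below the PBS litters. In ILC2-like cells 2 were tested and 0 called, where 2.74% of 10654 genes were, and 0 had an unadjusted p under 0.05, where 12.7% of genes did. Atp1b1 measured 12.9 and 10.23 CPM under DEX and 10.20 and 8.18 CPM under PBS there, both DEX litters above both PBS litters as in 20.3% of genes, and differed by 0.36 (SE 0.23, unadjusted p = 0.133, adjusted p = 0.584 by edgeR with Benjamini-Hochberg adjustment). In B-like cells Atp1b1, and in macrophage or monocyte-like cells Nedd4l, was the 1 gene tested. They differed by 0.48 (SE 0.35) and -0.26 (SE 0.45) and were not called, where 0.213% and 0.0501% of genes were. Neither had an unadjusted p under 0.05, where 4.22% and 6.59% of genes did, and both overlapped between groups, where 15.1% and 18.8% of genes had both DEX litters below. Without PBS-2, Atp1b1 entered the test in macrophage or monocyte-like cells and was called at -3.57 (adjusted p = 0.0017), on 0 and 5.84 CPM under DEX against 50.1 CPM in PBS-1.

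**Figure D4:**
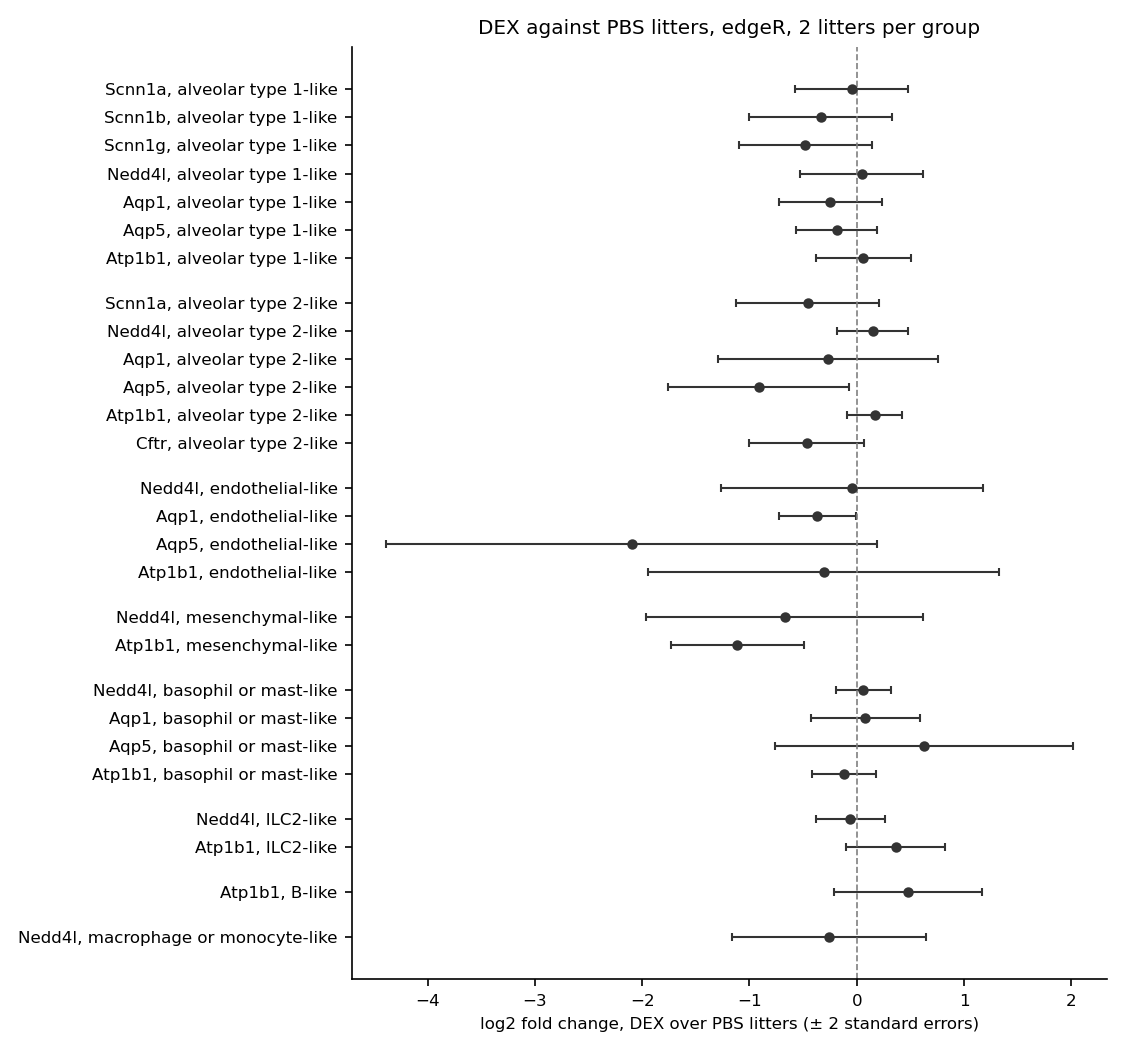
Log2 difference of DEX from PBS litters for each gene tested in each class, with bars of 2 standard errors on each side from edgeR. None passed the adjusted threshold of 0.05; the widest bars belong to Aqp5 and Atp1b1 in endothelial-like cells.

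The 56 related genes gave 1 call. In ILC2-like cells 26 of them were tested and 1 was called, higher in DEX, where 2.74% of all genes were called; in AT1-like (18 tested), AT2-like (25), endothelial-like (25), mesenchymal-like (21), basophil or mast-like (35), macrophage or monocyte-like (19) and B-like cells (9), 0 were called by edgeR. At an unadjusted p under 0.05 there were 6 in ILC2-like cells, where 12.7% of all genes passed that limit, and 1 to 3 in each other class, where 2.82% to 6.59% did. The median log2 difference of the list was 0.08 in AT1-like cells and -0.0045 in AT2-like cells, beside 0.02 and -0.0037 over all genes tested. The gene called in ILC2-like cells was Sgk1, a kinase that is induced by glucocorticoids and keeps Nedd4l from removing ENaC. It measured 54.8 and 61.7 CPM under DEX and 39.0 and 43.2 CPM under PBS, and rose by 0.50 on the log2 scale (SE 0.12, adjusted p = 0.0304 by edgeR with Benjamini-Hochberg adjustment). The call was lost with DESeq2 (adjusted p = 0.296), without DEX-2 (0.40, adjusted p = 0.258) and without PBS-1 (0.43, adjusted p = 0.0995).

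In AT1-like cells Sgk1 measured 86.1 and 113 CPM under DEX and 25.9 and 18.3 CPM under PBS, on 14, 37, 6 and 1 UMIs. The log2 difference of 2.09 (SE 0.51, unadjusted p = 0.0006) did not pass, with an adjusted p of 0.394 by edgeR with Benjamini-Hochberg adjustment. Over 16 alternatives the difference ran from 0.93 to 2.54 and the adjusted p from 0.0802 to 1.00. The DEX litters were both higher than either PBS litter, as for 16.1% of genes in that class. In AT2-like cells Sgk1 measured 28.8, 30.3, 23.1 and 13.5 CPM in the same litters and differed by 0.61 (SE 0.38, adjusted p = 0.925).

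A list of 12 genes known as direct targets of the glucocorticoid receptor, Sgk1 among them, had 4 calls of 10 tested in ILC2-like cells, where 2.74% of genes were called. Errfi1, a feedback inhibitor of growth factor receptors, rose by 0.76 (SE 0.12, adjusted p = 0.00147), and Zbtb16, a transcription factor gene, by 0.48 (SE 0.11, adjusted p = 0.0197), by edgeR with Benjamini-Hochberg adjustment. Fkbp5, a co-chaperone gene that glucocorticoids usually induce, fell by 0.50 (SE 0.11, adjusted p = 0.0232), at 56.7 and 47.2 CPM in the DEX litters against 81.1 and 68.7 CPM in the PBS litters. Without DEX-2 the adjusted p was 0.144 for Zbtb16 and 0.187 for Fkbp5, without PBS-1 it was 0.0954 for Fkbp5, and without PBS-2 it was 0.0699 for Zbtb16. With DESeq2 it was 0.274 for Zbtb16 and 0.186 for Fkbp5, so that of the 4 genes Errfi1 alone kept its call under that tool. In AT2-like cells 10 of the 12 were tested and 0 called by edgeR, with 2 at an unadjusted p under 0.05, where 0.0171% and 5.15% of all genes were. These were Errfi1, at 489, 530.1, 354 and 329 CPM in the 4 litters (0.57, SE 0.15, adjusted p = 0.565), and Mt1, a metallothionein gene, at 1900, 1624, 1012 and 1225 CPM (0.65, SE 0.13, adjusted p = 0.241). In AT1-like cells 8 were tested and 0 called, with a median of 0.29 beside 0.02 over all genes.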

How the data were processed

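The authors sorted, hashtagged and sequenced the cells with 10x 5′ v2 chemistry and counted them with Cell Ranger multi (version 7) on mm10. They deposited 1 table of raw counts, the UMIs of 32285 genes and 4 hashtags in 10648 barcodes, not normalized. A figure legend of the study names 1 dam per group; the labels and hashtags give 2 litters, which were followed.

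Barcodes with at least 200 genes and at most 5% mitochondrial UMIs were kept, as in the study. HTODemux (Seurat 5.3.0, quantile 0.99) assigned hashtags; 736 hashtag doublets were dropped, and 2405 barcodes with no hashtag were kept for clustering. Scrublet marked 1 barcode at its own threshold, so its top 5% of scores was left out only as an alternative. Clustering (scanpy 1.11.5, Python 3.11.15; 2000 variable genes, 20 components, 15 neighbours, Leiden 0.5, epithelial cells split again) left out 74 genes, the members and related lists. A class was named where at least 3 markers of 1 of 19 types were each in at least 25% of cells with a mean share of at least 30%. The next type's mean share also had to be at most 60% of that mean share, and the leading 10 genes could not go against the name. Other clusters stayed unnamed.

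UMIs were summed per litter and class and tested with edgeR 4.0.16 (quasi-likelihood F-test, two-sided, TMM, filterByExpr, Benjamini-Hochberg) in R 4.3.3, 2 DEX against 2 PBS litters; p-values measure the spread between these litters only. Class levels were described, not tested. DESeq2 1.42.0, limma-voom (limma 3.58.1) and the other alternatives are in the closing section. Scripts were tested on simulated data. Wilson intervals and limits for a count of 0 (3 counts) cover counting error only.

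Members were fixed by symbol and named in every class. Of the related lists, genes called in any class and, per role, the gene highest in AT1-like, AT2-like and endothelial-like cells were named, except for some results not reported here, with the 3 genes closest to each member over the classes; Sgk1, Errfi1 and Mt1 in alveolar cells were named after their values were seen. The members and lists were chosen with earlier results of these data known.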

Additional observations from a re-analysis of the deposited data

Results flagged for a closer look

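In 6 of 50 pairs of gene and class with at least 10 UMIs, 1 litter stood far from the other 3. Its gap to the nearest, over the whole range, exceeded Dixon's 95% limit. That limit assumes independent normal values of 1 population, while DEX and PBS litters were mixed and some pairs rested on few UMIs. The count of pairs was therefore not compared with chance. Aqp5 in AT1-like cells was at 2713 CPM in PBS-1. Scnn1b in ciliated-like cells was at 15.2 CPM in PBS-1, a class of 6 barcodes there. In endothelial-like cells PBS-2 stood apart for Aqp5 (103 CPM), Scnn1b (7.95 CPM) and Scnn1g (7.95 CPM), beside Ager at 281 CPM and Sftpc at 6159 CPM in that litter. In macrophage or monocyte-like cells Atp1b1 was at 50.1 CPM in PBS-1, beside Ager at 129 CPM and Cpa3 at 299 CPM.

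Atp1b1 lay on opposite sides in different classes. Both DEX litters were above both PBS litters in AT2-like cells (log2 difference 0.17, as in 18.0% of genes) and in ILC2-like cells (0.36, as in 20.3%). They were below them in mesenchymal-like cells (-1.11, as in 15.8%), where Cpa3 followed the same order of litters. The difference between classes was not tested, and none of the 3 values was called. In the other classes where Atp1b1 was tested its litters overlapped.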

How the results depend on the processing

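Of the differences between DEX and PBS for the 8 genes, 364 values under the alternatives kept their direction and stayed not called, 54 turned sign and 6 became called in the same direction; 1 of the turned values, Atp1b1 in endothelial-like cells without PBS-2, was also called (2.24). None were called as reported. With no filter on low genes 1 gene was called in AT2-like (Aqp5), 1 in endothelial-like (Aqp5) and 1 in mesenchymal-like cells (Atp1b1), and 2 in the other classes (Atp1b1 and Aqp5 in macrophage or monocyte-like cells). Leaving out 1 litter in turn gave 0 to 1 in each of these and 0 in AT1-like, basophil or mast-like and ILC2-like cells; where 1 litter was left, it was assumed to vary like the others.

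Signs turned in AT1-like cells with MULTIseqDemux (Scnn1a 0.10, Scnn1b 0.0052, Aqp1 0.16, Aqp5 0.027, Atp1b1 -0.20), a hashtag ratio rule (Scnn1a 0.060, Aqp1 0.25, Aqp5 0.11, Atp1b1 -0.12, Nedd4l -0.12), a mitochondrial limit of 10% (Scnn1a 0.027, Aqp1 0.015), thinning to 2000 UMIs (Scnn1a 0.29, Aqp1 0.30), no filter (Scnn1a 0.0032), DESeq2 (Nedd4l -0.030), singlets clustered alone (Atp1b1 -0.0015, Nedd4l -0.14) and, chosen after seeing the data, without barcodes with an immune UMI (Scnn1a 0.11, Atp1b1 -0.0061, Nedd4l -0.088). In AT2-like cells they turned with MULTIseqDemux (Aqp1 0.24, Nedd4l -0.032), the ratio rule (Aqp1 0.51) and the 10% limit (Aqp1 0.50). In endothelial-like cells they turned with limma-voom (Atp1b1 0.38, Nedd4l 0.064), the replicate block (Nedd4l 0.0011), without high Scrublet scores (Nedd4l 0.051) and without immune UMIs (Nedd4l 0.22); in ILC2-like cells with thinning (Nedd4l 0.0027); and in macrophage or monocyte-like cells with MULTIseqDemux (Nedd4l 0.12), the 10% limit (0.056) and singlets alone (0.061). The cause was not tested.

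Leaving out 1 litter gave, from lowest to highest, in AT2-like cells Scnn1a -0.79 to 0.058 and Aqp1 -1.55 to 0.61; in AT1-like cells Scnn1a -0.24 to 0.084, Scnn1b -0.65 to 0.24, Aqp5 -0.39 to 0.15, Atp1b1 -0.17 to 0.31 and Nedd4l -0.39 to 0.31; in endothelial-like cells Aqp5 -3.00 to 1.69, Atp1b1 -1.14 to 2.24 and Nedd4l -0.83 to 1.11; in basophil or mast-like cells Aqp1 -0.12 to 0.32, Aqp5 -0.13 to 2.19, Atp1b1 -0.38 to 0.10 and Nedd4l -0.076 to 0.19; in ILC2-like cells Nedd4l -0.29 to 0.16; and, with no sign turned, in mesenchymal-like cells Nedd4l -2.17 to -0.0087 and in B-like cells Atp1b1 0.0048 to 1.16.

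The litter numbers 1 and 2 mark no shared day or batch in the labels, and the correlation of the litter deviations between groups ran from -0.11 to 0.24 over classes. With these numbers as a replicate block 0 of the 8 genes were called, while genes called went from 1 to 14 in AT2-like, 0 to 3 in AT1-like, 0 to 19 in endothelial-like, 0 to 7 in basophil or mast-like, 292 to 542 in ILC2-like, 7 to 30 in B-like and 3 to 94 in macrophage or monocyte-like cells. Over all alternatives these counts ran from 0 to 36, 0 to 12, 0 to 101, 0 to 199, 81 to 542, 2 to 91 and 0 to 102, and in mesenchymal-like cells from 0 to 79.

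Of the class levels 101 stayed within 1 SD and 3 moved further: thinned, Scnn1a in AT1-like cells was 282 CPM and Cftr in AT2-like cells 98.8 CPM, and in barcodes with no hashtag Cftr was 95.7 CPM. Of the class ratios 153 stayed within 1 SD, 19 moved further and 1 turned, Scnn1a in AT1-like over ciliated-like cells (log2 0.90), which was -0.72 as UMIs per cell. For Sgk1, Errfi1, Zbtb16 and Fkbp5, 67 values kept their side of the threshold and 13 lost their call, and all 4 lost it in ILC2-like cells after thinning. Depth limits the AT1-like test most, at 54538 UMIs in PBS-2.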

Other observations

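Some clusters met no class name and stayed outside the comparisons, with 140 to 211 hashtagged barcodes per litter and 634 with no hashtag. The largest epithelial one, 215 barcodes led by Sftpc and Lyz1, carried AT2 markers at a mean share of 96.9% and AT1 markers at 91.6%. In its barcodes with no hashtag Aqp5 was at 653 CPM, Atp1b1 at 1042 CPM and Cftr at 47.0 CPM. A cluster of 30 barcodes led by Upk3b, a gene of the mesothelium that lines the lung, held Aqp1 at 706 CPM in barcodes with no hashtag and 317 CPM in those with one. A cluster of 52 barcodes led by the airway secretory genes Scgb3a2 and Scgb1a1 held, in barcodes with no hashtag, Atp1b1 at 1383 CPM, Scnn1a at 145 CPM, Scnn1b at 78.6 CPM and Scnn1g at 47.1 CPM. A cluster of 116 barcodes led by the smooth muscle genes Tagln and Acta2, with AT1 markers beside mesenchymal ones, held Atp1b1 at 553 CPM and Aqp5 at 256 CPM in barcodes with no hashtag.

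The glucocorticoid receptor gene Nr3c1 measured 301.5 ± 23.6 CPM in ILC2-like, 232 ± 22.0 in mesenchymal-like, 228 ± 26.5 in basophil or mast-like, 160 ± 21.0 in endothelial-like, 116 ± 34.3 in AT1-like and 57.7 ± 13.8 in AT2-like cells (SD, n = 4 litters each).

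Of the barcodes with no hashtag, the highest tag count was that of PBS-2 in 44.6%, DEX-2 in 34.3%, PBS-1 in 14.8% and DEX-1 in 6.36%. MULTIseqDemux gave 780 of them to PBS-2 and 134 to 233 to each other litter.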
